A study of Mus musculus with 24 samples.

Results

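The genes described here are the P450 enzymes of drug and fatty acid metabolism with their electron donor Por, 43 gene symbols that were picked by name from the mouse liver count table. Of the 43 symbols, 42 matched a row of the table's 53467 genes, and 41 passed the filter on low values (at least 0.5 CPM, counts scaled to the size of the library, in at least 2 of 24 libraries). The symbol Cyp2c23 had no row of its own. RefSeq gives it as a synonym of the gene listed as Cyp2c44, which is among the 42. Cyp3a41a had 0 to 1 count in every library and was not tested.

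Livers came from male C57BL/6JAusb mice that received plasmids by hydrodynamic tail vein injection (HTVI), a rapid injection of a large volume that carries DNA mainly into hepatocytes, at 14 to 15 weeks of age. All mice received 0.8 µg of the plasmid for the Sleeping Beauty (SB) transposase, which inserts the other plasmids' cargo into the genome, so that the control livers carry it too. From 8 to 10 days later they were given 10 to 11 intraperitoneal injections over 5 to 6 weeks of either saline or thioacetamide (TAA, a liver toxicant), at 100 mg/kg and then 200 mg/kg. The study asked how liver injury alters 2 oncogene models of liver cancer. SB/AKT/c-Met + TAA (4 livers) and SB/AKT/c-Met + saline (3 livers) additionally received 10 µg each of plasmids for myristoylated AKT and human c-Met, and SB/AKT/NRas + TAA (5 livers) and SB/AKT/NRas + saline (4 livers) received 10 µg each of plasmids for AKT and an active human NRas. SB + TAA (4 livers) and SB + saline (4 livers) received no oncogene. The c-Met plasmid uses an EF1a promoter and the NRas plasmid a CAGGS promoter, neither of them hepatocyte-specific, and HTVI reaches only some hepatocytes. Each library is 1 piece of snap-frozen bulk liver from 1 mouse, tumour and surrounding tissue not separated, so fewer cells of a type and less RNA per cell cannot be told apart.

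Cytochromes P450 are haem enzymes of the endoplasmic reticulum that insert 1 atom of oxygen into their substrate, and Por, NADPH-cytochrome P450 reductase, passes them the electrons. The Cyp1, Cyp2 and Cyp3 families oxidise drugs and toxins and, in the case of Cyp2c and Cyp2j, turn arachidonic acid into epoxides. The Cyp4 family hydroxylates the far end of fatty acids and of leukotrienes, and Cyp26a1 clears retinoic acid. In liver most of these enzymes are made by hepatocytes, many of them around the central vein, and their genes respond to CAR (Nr1i3), PXR (Nr1i2), the aryl hydrocarbon receptor (Ahr) and PPAR alpha (Ppara). TAA itself is activated by Cyp2e1.

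Total counts of unique molecules were 2152510 to 3399247 per library (median 2832909). Human NRAS had 28 to 768 counts in the 9 livers given that plasmid and 0 to 2 counts in the other 15, and human MET had 2 to 31 counts in the 7 livers given c-Met and 0 in the other 17. Of the sequenced records, 20.7% to 23.1% were assigned to genes in SB + TAA, against 15.6% to 16.7% in SB + saline. Records left out for low mapping quality made up 46.2% to 49.0% in SB + TAA, against 51.6% to 53.6% in SB + saline. The TMM factors that scale the libraries were 0.944 to 1.14 in SB + TAA, against 0.772 to 0.818 in SB + saline. They were also above the SB + saline range in all other libraries. They were 1.00 to 1.11 in SB/AKT/c-Met + TAA, 0.943 to 1.17 in SB/AKT/NRas + TAA, 0.846 to 1.19 in SB/AKT/NRas + saline and 0.939 to 0.983 in SB/AKT/c-Met + saline. All 5 comparisons with SB + saline thus carry this difference. Of 15 hepatocyte plasma protein genes 14 were tested and none of these was at 0 in any group. Liver 4 of SB + TAA carried skeletal muscle transcripts, 8727 CPM summed over 12 marker genes, against 4.71 to 35.5 CPM in the other 23 livers. Liver 1 of SB/AKT/NRas + saline stood apart from the other 3 of its group, with 150.3 CPM of bile duct markers against 919 to 8799 CPM in those 3. The counts of calls against SB + saline are given below also without both livers.

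Many of these genes lie in family clusters. The 13 Cyp2c genes found lie on chromosome 19 (GRCm38, 39007019 to 44029208), the 5 Cyp2d genes within 423.7 kb of chromosome 15, the 7 Cyp3a genes on chromosome 5, the 3 Cyp4f genes within 261.8 kb of chromosome 17 and the Cyp2a, Cyp2f and Cyp2g genes on chromosome 7. RefSeq (GRCm38.p6) promoter sequences were matched for 35 of the 42 genes. The 120 bases before the start of transcription are shown for genes described below: the Cyp2c genes Cyp2c29, Cyp2c37, Cyp2c50 and Cyp2c38, called in SB + TAA, Cyp2c70, which passed no test, the near-identical pair Cyp2c40 and Cyp2c69, the neighbours Cyp2a22 and Cyp2a12 of which Cyp2a22 was called and Cyp2a12 was not, and Cyp1a1. Capitals mark a TATA box (TATAAA), the HNF4 site CAAAGTCCA or its shorter form CAAAGT, and, for Cyp1a1, the core GCGTG that the aryl hydrocarbon receptor binds, each searched on both strands.
Cyp2c29, chr19:39286965-39287084, plus strand: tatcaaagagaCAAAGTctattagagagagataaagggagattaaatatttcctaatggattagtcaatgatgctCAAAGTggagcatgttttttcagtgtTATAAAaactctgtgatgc
Cyp2c37, chr19:39992304-39992423, plus strand: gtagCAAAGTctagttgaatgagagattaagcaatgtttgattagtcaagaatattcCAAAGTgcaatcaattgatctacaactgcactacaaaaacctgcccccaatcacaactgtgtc
Cyp2c50, chr19:40089559-40089678, plus strand: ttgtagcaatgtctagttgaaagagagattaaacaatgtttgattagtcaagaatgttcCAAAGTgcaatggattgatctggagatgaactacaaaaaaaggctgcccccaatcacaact
Cyp2c38, chr19:39463076-39463195, minus strand: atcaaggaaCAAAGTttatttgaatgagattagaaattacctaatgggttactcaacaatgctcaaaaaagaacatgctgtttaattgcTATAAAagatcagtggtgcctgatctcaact
Cyp2c40, chr19:39812815-39812934, minus strand: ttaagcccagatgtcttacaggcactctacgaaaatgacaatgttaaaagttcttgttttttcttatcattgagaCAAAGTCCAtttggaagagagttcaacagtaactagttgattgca
Cyp2c69, chr19:39886770-39886889, minus strand: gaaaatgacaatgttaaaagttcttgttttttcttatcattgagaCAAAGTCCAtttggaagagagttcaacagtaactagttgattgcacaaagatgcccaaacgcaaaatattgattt
Cyp2c70, chr19:40187287-40187406, minus strand: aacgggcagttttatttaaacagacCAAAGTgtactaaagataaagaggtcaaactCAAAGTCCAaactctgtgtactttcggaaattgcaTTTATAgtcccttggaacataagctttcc
Cyp2a22, chr7:26939387-26939506, minus strand: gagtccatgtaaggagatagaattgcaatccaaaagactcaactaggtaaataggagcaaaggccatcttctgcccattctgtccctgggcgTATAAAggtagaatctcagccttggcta
Cyp2a12, chr7:27028970-27029089, plus strand: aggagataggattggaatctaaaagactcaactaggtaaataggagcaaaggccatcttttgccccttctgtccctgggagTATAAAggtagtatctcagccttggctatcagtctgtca
Cyp1a1, chr9:57697493-57697612, plus strand: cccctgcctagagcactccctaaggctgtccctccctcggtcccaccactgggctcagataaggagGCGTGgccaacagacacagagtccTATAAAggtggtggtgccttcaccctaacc

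Within these windows Cyp2c37 and Cyp2c50 shared an identical run of 22 bases, Cyp2a22 and Cyp2a12 one of 39 bases, and Cyp2c40 and Cyp2c69 one of 90 bases, whereas the longest run shared by Cyp2c29 and Cyp2c38 was 9 bases. The 35 genes have 40 promoter windows. The full HNF4 letters CAAAGTCCA stood within 250 bases of the start in 8 of the 40 windows, each of a different gene (Cyp2c40, Cyp2c67, Cyp2c68, Cyp2c69, Cyp2c70, Cyp3a11, Cyp3a16 and Cyp3a41a), against 0.384% of the 32851 promoter windows of all genes. Related genes such as Cyp2c40 and Cyp2c69 have near-copies of the same window, so these are not separate occurrences. The shorter CAAAGT, which every CAAAGTCCA contains, stood in 20 of the 40 windows (18 genes), against 12.6% of all windows. TATAAA was found in 17 windows (17 genes), against 12.4% of all windows, and GCGTG in 5 windows (5 genes), against 28.2% of all windows. The HNF1 letters GTTAAT stood in 5 windows (5 genes), against 6.43% of all windows, and the C/EBP letters TTGCNNAA in 9 windows (5 genes), against 9.56%. These matches describe the letters only.

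Members of these P450 families differed among the 6 groups more often than genes at large, and most of those that differed were lower than in SB + saline. The genes were chosen with earlier results of these data known, so the shares below describe this list and are not a test of it. By the edgeR quasi-likelihood F test 21 of 41 members were called (Benjamini-Hochberg adjusted p under 0.05), against 9.0% of all 19381 genes tested. In SB/AKT/c-Met + TAA, 4 members were called higher and 9 lower than in SB + saline, against backgrounds of 2.68% and 1.08% of all genes. SB/AKT/NRas + TAA had 4 higher and 13 lower, against backgrounds of 5.69% and 3.57%. SB + TAA had 3 higher and 13 lower, against 3.46% and 2.52%. SB/AKT/NRas + saline had 1 higher and 13 lower, against 5.54% and 2.87%. SB/AKT/c-Met + saline had 1 higher and 0 lower, against 0.599% and 0.0413%, with 11 members at an unadjusted p under 0.05, and limma-voom called 0 and DESeq2 3 members there. These 5 comparisons share the same 4 SB + saline livers, so their values are given side by side and are not independent of each other.

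**Figure D1:**
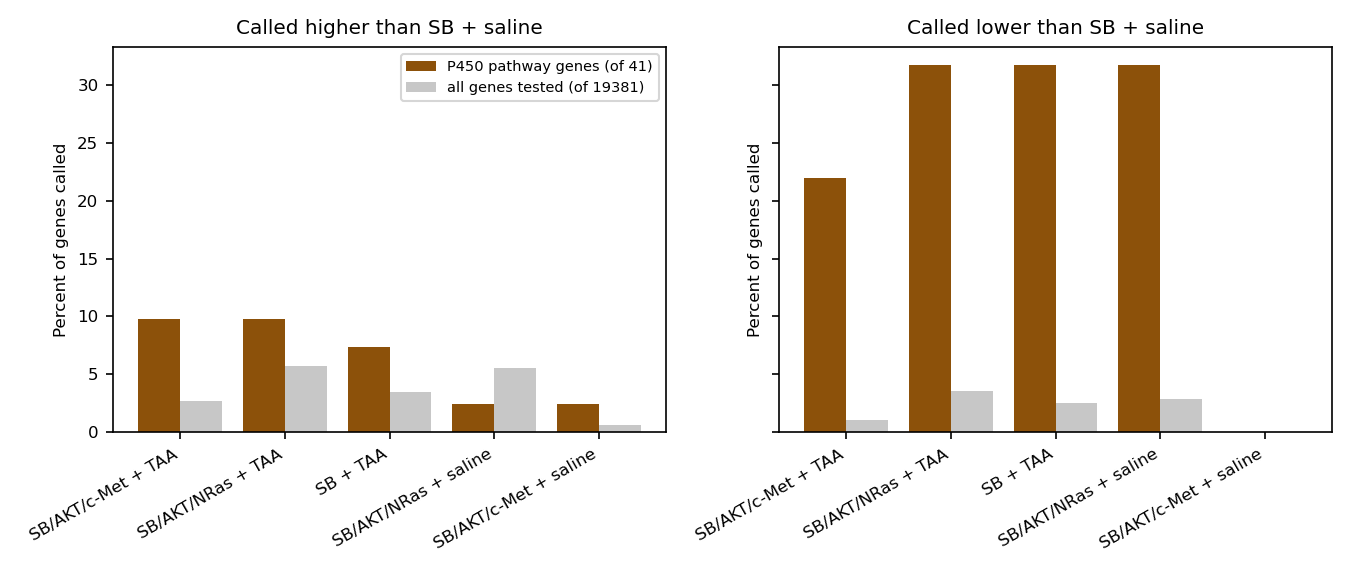
Percent of the 41 P450 pathway genes tested (brown) and of all 19381 genes tested (grey) called higher (left panel) or lower (right panel) than SB + saline in each group, edgeR adjusted p under 0.05. Lower calls reach 9 of 41 members in SB/AKT/c-Met + TAA and 13 of 41 in SB/AKT/NRas + TAA, SB + TAA livers and SB/AKT/NRas + saline livers, and 0 in SB/AKT/c-Met + saline.

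The median log2 fold change of the 41 members against SB + saline was -0.66 in SB/AKT/c-Met + TAA, -0.68 in SB/AKT/NRas + TAA, -0.49 in SB + TAA, -0.72 in SB/AKT/NRas + saline livers and -0.38 in SB/AKT/c-Met + saline, where the median of all genes lay between 0.02 and 0.08. The number of lower calls depended on the scaling. Scaling by library size alone moved the median of all genes up by 0.26 to 0.43, and scaling by the total of the hepatocyte plasma proteins moved it up by 0.33 to 0.62. With library size alone the calls were 7 higher and 6 lower in SB/AKT/c-Met + TAA, 8 higher and 9 lower in SB/AKT/NRas + TAA, 5 higher and 10 lower in SB + TAA, and 1 higher and 7 lower in SB/AKT/NRas + saline. With the plasma protein total they were 7 higher and 6 lower, 9 higher and 7 lower, 3 higher and 10 lower, and 3 higher and 4 lower in the same order of groups. The median of the members stayed below 0 in the 5 groups under both scales, except in SB/AKT/c-Met + saline with the plasma protein total, where it was 0.10.

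Single livers also moved these counts. For SB/AKT/NRas + saline the 14 calls became 24 without liver 1 of that group, 3 without liver 2, 2 without liver 3 and 3 without liver 4, and 5, 6 and 5 without SB + saline livers 1, 2 and 4. For SB/AKT/c-Met + TAA the 13 calls became 8, 7 and 8 without its livers 1, 2 and 3, and 8, 8 and 7 without SB + saline livers 1, 2 and 4. The single call for SB/AKT/c-Met + saline became 0 without its liver 2 or without SB + saline liver 3 or 4, and 3 and 2 without SB/AKT/NRas + saline livers 1 and 3. With both livers that stand apart left out, SB/AKT/c-Met + TAA had 19 calls, SB/AKT/NRas + TAA had 25, SB + TAA had 14, SB/AKT/NRas + saline had 24, SB/AKT/c-Met + saline had 4 and the F test 32.

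**Figure D2:**
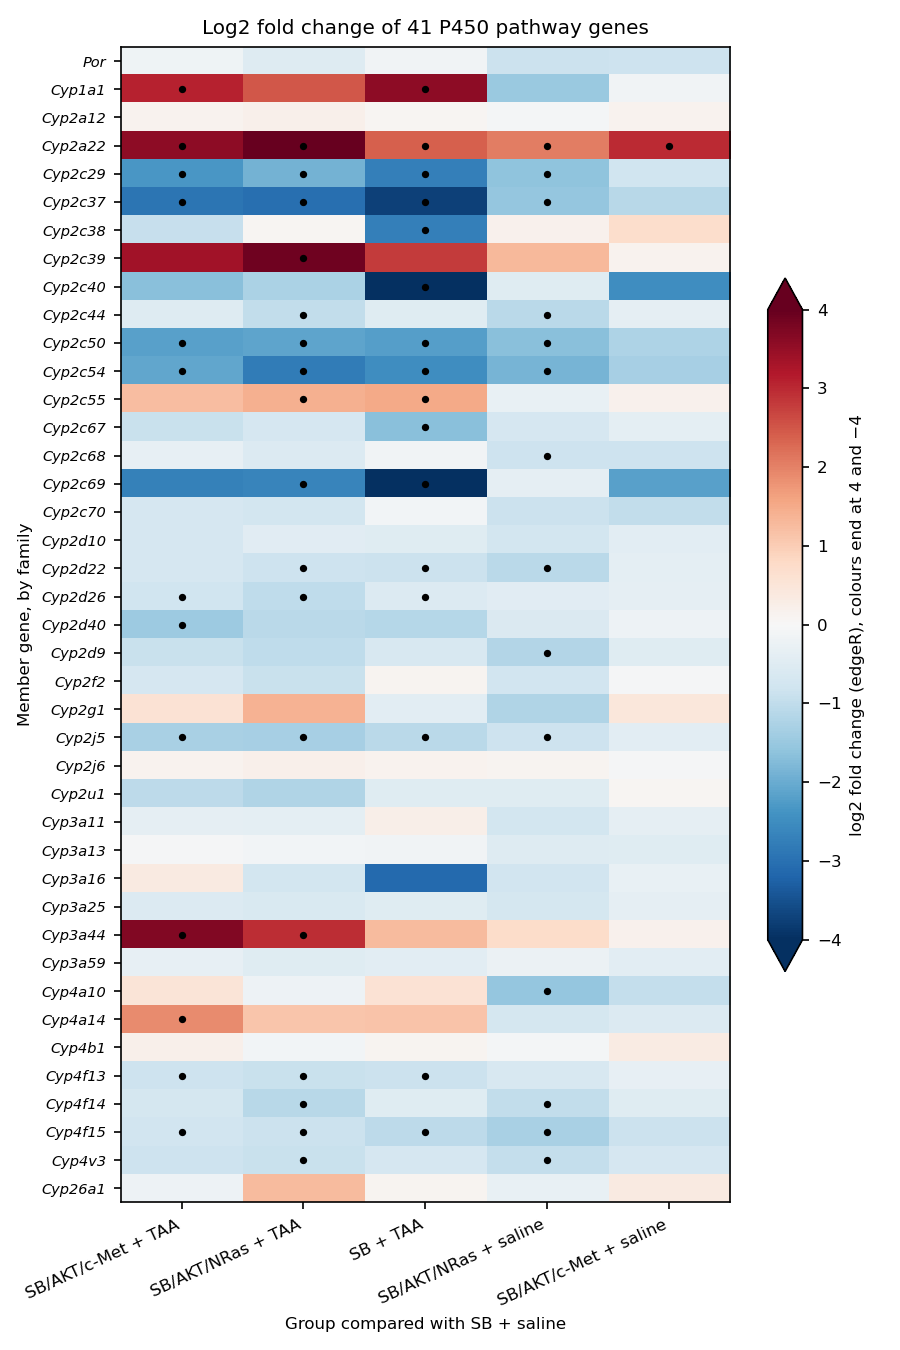
Log2 fold change of each of the 41 members tested (rows, by family) in each group against SB + saline (columns), with a dot where edgeR called the gene. The Cyp2c rows hold the deepest blue, down to -5.87 for the fitted value of Cyp2c69 in SB + TAA, where its count was 0, and Cyp2a22 is the gene with a dot in all 5 columns; colours stop at 4 and -4.

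The Cyp2c family held the most and the largest of the decreases. Of its 13 genes 10 were called by the F test, and 4 were lower in SB/AKT/c-Met + TAA, 6 in SB/AKT/NRas + TAA, 8 in SB + TAA livers and 6 in SB/AKT/NRas + saline than in SB + saline. Summed over the 13 genes, expression was 1150 to 1420 CPM in SB/AKT/c-Met + TAA, 994 to 1827 CPM in SB/AKT/NRas + TAA, 1139 to 1759 CPM in SB + TAA, 502 to 3163 CPM in SB/AKT/NRas + saline and 1962 to 2441 CPM in SB/AKT/c-Met + saline, against 3005 to 4190 CPM in SB + saline. No TAA liver reached the lowest SB + saline liver, whereas 1 SB/AKT/NRas + saline liver did. The family median was below 0 in all 5 groups with TMM, RLE size factors, library size alone and the plasma protein total as the scale.

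**Figure D3:**
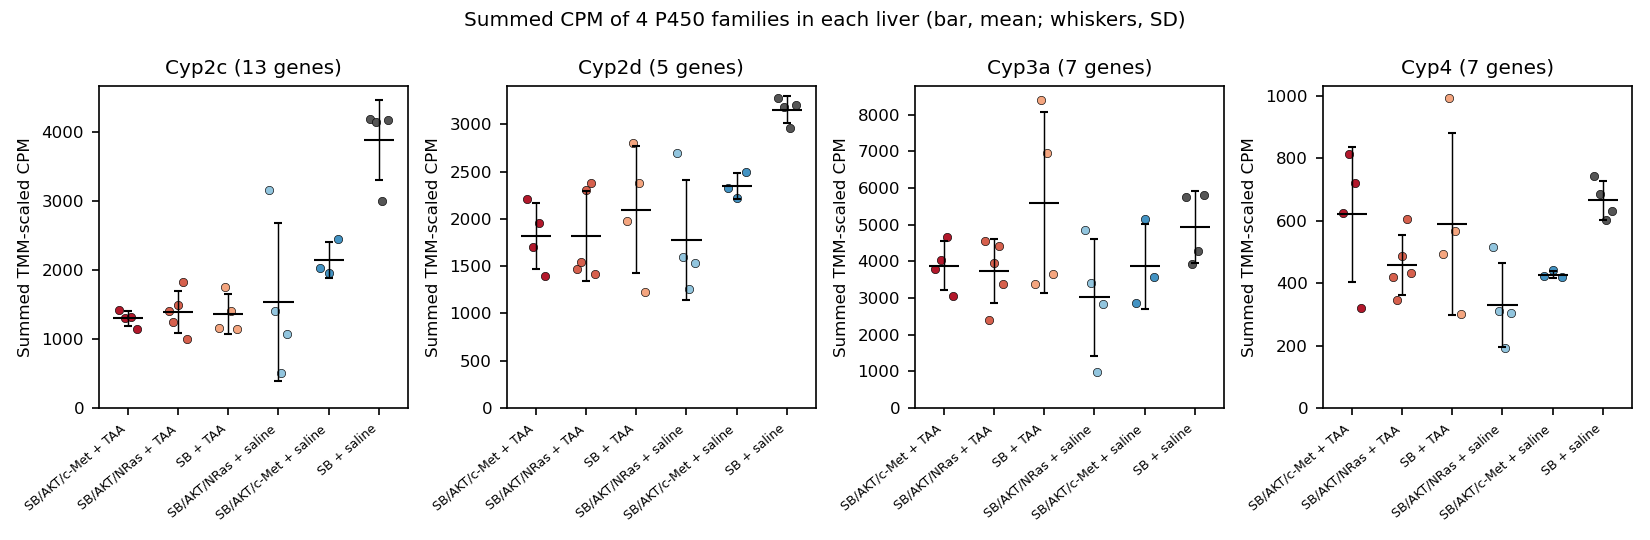
Summed TMM-scaled CPM of the Cyp2c, Cyp2d, Cyp3a and Cyp4 members (y axes, each starting at 0) in every liver of the 6 groups (points; bar, mean; whiskers, SD). The 3 TAA groups lie at 994 to 1827 CPM for Cyp2c, below the 3005 to 4190 CPM of SB + saline, whereas the Cyp3a sums of SB + TAA, 3392 to 8407 CPM, span those of SB + saline, 3913 to 5794 CPM.

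Cyp2c29, Cyp2c37, Cyp2c50 and Cyp2c54, enzymes that act on arachidonic acid, were called lower in 4 of the 5 groups. In SB/AKT/c-Met + saline none of the 4 genes passed, although all 3 livers there lay below every SB + saline liver for each gene. Cyp2c29 had 422, 501, 320.3 and 223 CPM in SB/AKT/c-Met + TAA livers, 484, 468, 585, 626 and 316 CPM in SB/AKT/NRas + TAA livers and 157, 566, 217 and 177 CPM in SB + TAA livers. With saline it had 1264, 571, 130.0 and 458 CPM in SB/AKT/NRas + saline livers, 996, 964 and 1211 CPM in SB/AKT/c-Met + saline livers and 1853, 2197, 1351 and 2001 CPM in SB + saline livers. All TAA livers lay below all SB + saline livers, and so did the 4 SB/AKT/NRas + saline livers and the 3 SB/AKT/c-Met + saline livers. Against SB + saline, Cyp2c29 fell 5.05-fold in SB/AKT/c-Met + TAA, 3.73-fold in SB/AKT/NRas + TAA, 6.64-fold in SB + TAA and 3.06-fold in SB/AKT/NRas + saline livers (edgeR adjusted p = 0.00168, 0.00257, 0.000465 and 0.0176). In SB/AKT/c-Met + saline the log2 fold change was -0.81 ± 0.45 (SE) and did not pass (edgeR adjusted p = 0.566).

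Cyp2c37 had 22.3, 29.5, 24.8 and 5.61 CPM in SB/AKT/c-Met + TAA livers, 31.4, 13.2, 15.4, 24.7 and 12.8 CPM in SB/AKT/NRas + TAA livers and 7.39, 28.4, 6.72 and 5.41 CPM in SB + TAA livers. In the saline groups it had 94.9, 60.2, 13.1 and 48.8 CPM in SB/AKT/NRas + saline livers, 64.3, 79.6 and 72.3 CPM in SB/AKT/c-Met + saline livers and 237, 124, 140.4 and 120.2 CPM in SB + saline livers. The highest TAA liver, at 31.4 CPM, was under the lowest SB + saline liver, at 120.2 CPM. Its log2 fold change against SB + saline was -2.91 ± 0.48 in SB/AKT/c-Met + TAA, -3.00 ± 0.44 in SB/AKT/NRas + TAA, -3.75 ± 0.51 in SB + TAA livers and -1.53 ± 0.45 in SB/AKT/NRas + saline (SE; edgeR adjusted p = 0.000455, 6.75e-05, 6.38e-05 and 0.0302). In SB + TAA this is a 13.4-fold decrease.

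Cyp2c50, whose promoter shares the 22-base run with Cyp2c37 printed above, had 175, 141, 157 and 60.0 CPM in SB/AKT/c-Met + TAA livers, 166, 105, 122, 199 and 98.3 CPM in SB/AKT/NRas + TAA livers and 98.4, 261, 122 and 39.2 CPM in SB + TAA livers. With saline, Cyp2c50 had 418, 174, 33.2 and 124 CPM in SB/AKT/NRas + saline livers, 201, 223 and 327 CPM in SB/AKT/c-Met + saline livers and 718, 576, 467 and 621 CPM in SB + saline livers. It fell 4.47-fold, 4.32-fold and 4.6-fold in the TAA groups with AKT and c-Met, with AKT and NRas and with SB alone, and 3.19-fold in SB/AKT/NRas + saline livers (edgeR adjusted p = 0.00957, 0.00325, 0.00743 and 0.0285). The 3 TAA groups thus lay close together for this gene, at 39.2 to 261 CPM.

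Cyp2c54 had 41.8, 39.0, 26.7 and 5.61 CPM in SB/AKT/c-Met + TAA livers, 20.3, 14.5, 13.2, 30.2 and 9.02 CPM in SB/AKT/NRas + TAA livers and 19.5, 45.3, 16.8 and 5.14 CPM in SB + TAA livers. The saline livers had 78.7, 30.6, 3.97 and 21.1 CPM in SB/AKT/NRas + saline livers, 44.0, 36.2 and 63.7 CPM in SB/AKT/c-Met + saline livers and 172, 104, 102 and 102 CPM in SB + saline livers. It fell 4.25-fold in SB/AKT/c-Met + TAA, 6.93-fold in SB/AKT/NRas + TAA, 5.65-fold in SB + TAA and 3.66-fold in SB/AKT/NRas + saline, and none of these groups overlapped SB + saline livers (edgeR adjusted p = 0.0299, 0.00124, 0.0091 and 0.0335). The calls in SB + TAA livers and SB/AKT/NRas + TAA of Cyp2c29, Cyp2c37, Cyp2c50 and Cyp2c54 held under all 34 alternatives, as did those of Cyp2c29, Cyp2c37 and Cyp2c50 in SB/AKT/c-Met + TAA. Those in SB/AKT/NRas + saline each lost the call without liver 3 or liver 4 of that group, with adjusted p of 0.055 and 0.0582 for Cyp2c29, 0.115 and 0.0781 for Cyp2c37, 0.094 and 0.0901 for Cyp2c50 and 0.115 and 0.099 for Cyp2c54. Without its liver 2 or SB + saline liver 1, Cyp2c37 was at 0.0621 and 0.118, Cyp2c50 at 0.0756 and 0.0754 and Cyp2c54 at 0.0845 and 0.103. Without SB + saline livers 2 and 4, Cyp2c50 was at 0.0542 and 0.0611 and Cyp2c54 at 0.0555 and 0.0557. The calls in SB/AKT/NRas + saline were also lost with only the groups compared for Cyp2c29, Cyp2c50 and Cyp2c54, with the plasma protein total for Cyp2c37 and with DESeq2 for Cyp2c54. Cyp2c54 in SB/AKT/c-Met + TAA was at an adjusted p of 0.0936, 0.0512 and 0.0511 without SB + saline livers 1, 2 and 4 and 0.0539, 0.0821 and 0.103 without its livers 2, 3 and 4. Liver 3 of SB/AKT/NRas + saline, the lowest of its group for each of these 4 genes, was also its highest for bile duct markers (8799 CPM) and its lowest for perivenous hepatocyte markers (692 CPM). The part of either in the low values was not tested.

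**Figure D4:**
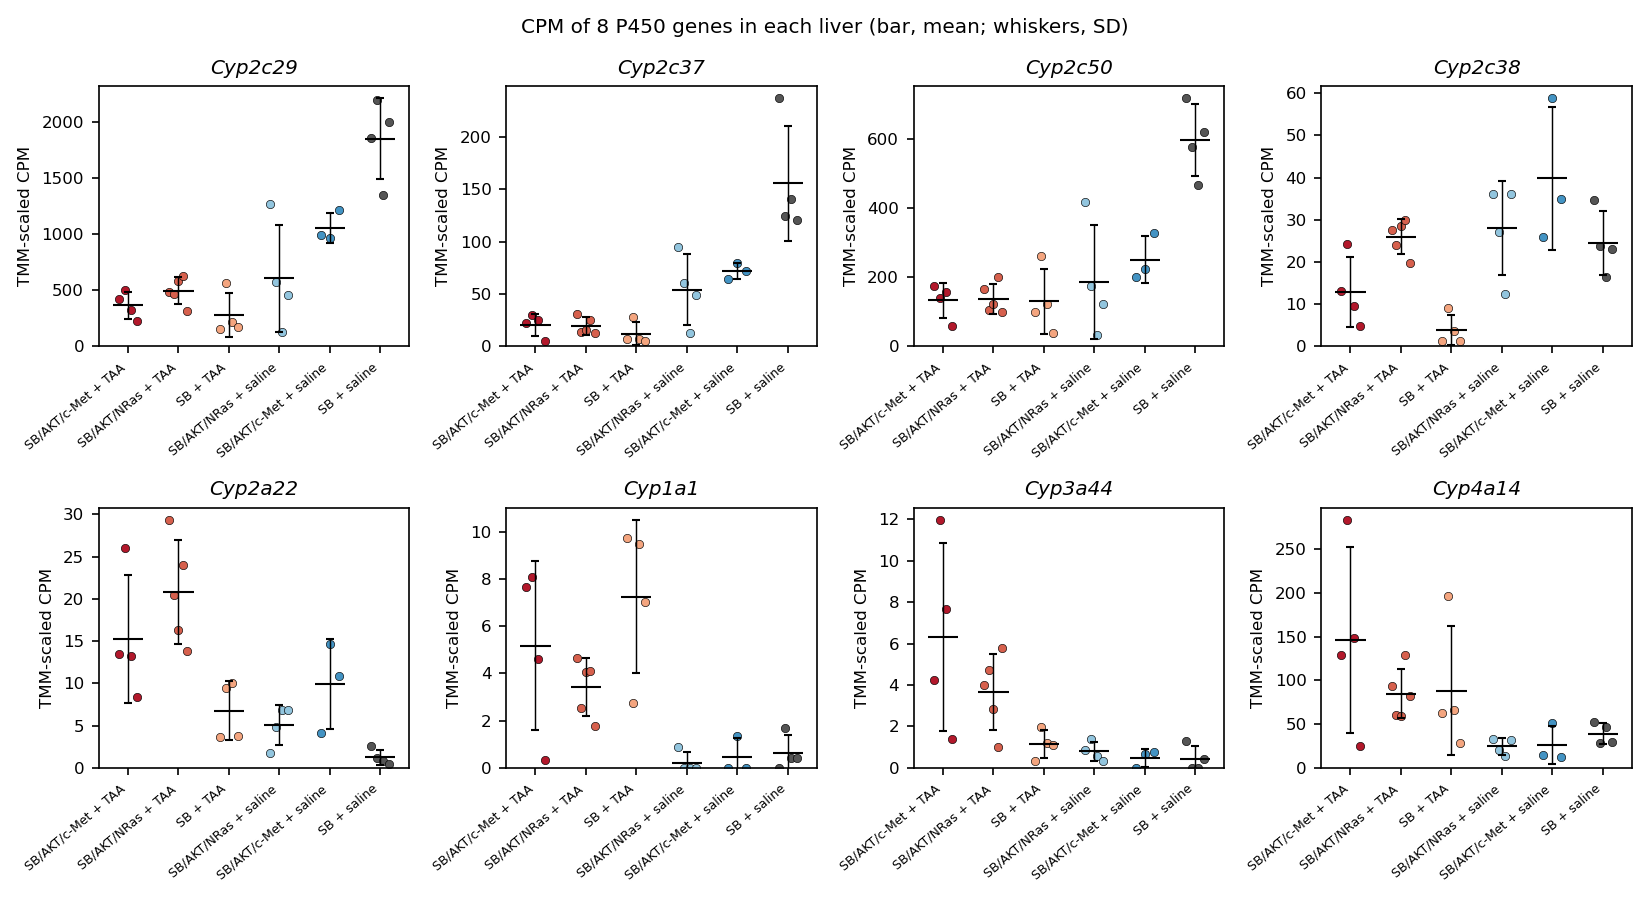
TMM-scaled CPM (y axes, each starting at 0) of 8 P450 genes in every liver of the 6 groups (points; bar, mean; whiskers, SD). Cyp2c29, Cyp2c37 and Cyp2c50 sit lower in every TAA liver than in every SB + saline liver, Cyp2c38 is low in the SB + TAA livers, at 1.34 to 9.07 CPM, and Cyp2a22, Cyp1a1, Cyp3a44 and Cyp4a14 have their highest livers in TAA groups.

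Cyp2c38 and Cyp2c67 were lower than in SB + saline when TAA was given without oncogenes, and no other group passed the test. Cyp2c38 had 13.1, 24.3, 9.50 and 4.91 CPM in SB/AKT/c-Met + TAA livers, 27.7, 23.97, 28.5, 29.9 and 19.8 CPM in SB/AKT/NRas + TAA livers and 1.34, 9.07, 3.67 and 1.35 CPM in SB + TAA livers. Its levels with saline were 36.0, 27.1, 12.5 and 36.1 CPM in SB/AKT/NRas + saline livers, 25.9, 58.8 and 34.8 CPM in SB/AKT/c-Met + saline livers and 34.6, 23.9, 16.5 and 23.1 CPM in SB + saline livers. It fell 6.67-fold in SB + TAA (log2 -2.74 ± 0.47, SE; edgeR adjusted p = 0.000862) with no overlap, whereas its log2 fold change was -0.92 ± 0.41 in SB/AKT/c-Met + TAA livers and 0.08 ± 0.37 in SB/AKT/NRas + TAA livers (edgeR adjusted p = 0.231 and 0.932). Compared directly, Cyp2c38 was 7.05-fold higher in SB/AKT/NRas + TAA than in SB + TAA (log2 2.82 ± 0.45, SE; edgeR adjusted p = 0.000485), a call kept under all 34 alternatives. Cyp2c67 had 89.1, 93.2, 101 and 88.1 CPM in SB/AKT/c-Met + TAA livers, 81.4, 94.6, 129, 163 and 73.7 CPM in SB/AKT/NRas + TAA livers and 54.8, 84.0, 48.6 and 28.7 CPM in SB + TAA livers. The saline groups had 251, 85.5, 32.4 and 65.4 CPM in SB/AKT/NRas + saline livers, 119.8, 136 and 142 CPM in SB/AKT/c-Met + saline livers and 187, 155, 156 and 193 CPM in SB + saline livers of Cyp2c67. It fell 3.22-fold in SB + TAA without overlap (edgeR adjusted p = 0.0077).

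Cyp2c40 and Cyp2c69, a pair whose promoters share 90 bases, were expressed at a few CPM, and 60.3% and 54.3% of their 50-base words also occur in other genes, so reads may be split or lost between them. Other members shared such words too, at 52.8% for Cyp2c67, 43.3% for Cyp2c68, 35.8% for Cyp2d10 and 30.1% for Cyp2c37. The shares were 29.8% for Cyp4a10, 26.5% for Cyp3a44 and 25.7% for Cyp2c54, against 4.25% for Cyp2c29 and 0.174% for Cyp2j5. How far shared words moved the counts was not tested. Cyp2c40 had 1.92, 2.11, 0.613 and 1.05 CPM in SB/AKT/c-Met + TAA livers, 3.00, 2.21, 0.313, 0.344 and 3.26 CPM in SB/AKT/NRas + TAA livers and 0, 1.18, 0 and 0 CPM in SB + TAA livers. In saline livers it stood at 5.27, 1.39, 5.39 and 0.976 CPM in SB/AKT/NRas + saline livers, 0.925, 0.342 and 1.12 CPM in SB/AKT/c-Met + saline livers and 6.84, 2.84, 2.41 and 5.99 CPM in SB + saline livers. SB + TAA held 3 counts in all, against 41 in SB + saline, a 19.1-fold lower rate with an exact counting interval of 6.10 to 96.6 (edgeR adjusted p = 0.00707). Cyp2c69 had 0, 0.352, 0.307 and 0.702 CPM in SB/AKT/c-Met + TAA livers, 0.334, 0.315, 0.627, 0.344 and 0.251 CPM in SB/AKT/NRas + TAA livers and 0, 0, 0 and 0 CPM in SB + TAA livers. For saline the values were 2.64, 0, 3.41 and 1.63 CPM in SB/AKT/NRas + saline livers, 0.463, 0 and 1.12 CPM in SB/AKT/c-Met + saline livers and 2.99, 0.568, 2.41 and 3.85 CPM in SB + saline livers. With 0 counts in SB + TAA against 23 in SB + saline, Cyp2c69 was at least 10.7-fold lower in SB + TAA (3 counts over the group as the floor; edgeR adjusted p = 0.00473). In SB/AKT/NRas + TAA it fell 6.17-fold (edgeR adjusted p = 0.0308), a call lost without its liver 1, 2 or 5 (edgeR adjusted p = 0.0653, 0.0678 and 0.0786) or SB + saline liver 1, 3 or 4 (0.0736, 0.0567 and 0.102). Counting intervals and floors cover counting error only.

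Cyp2c55 and Cyp2c39 were the Cyp2c genes that rose. Cyp2c55, an enzyme that hydroxylates arachidonic acid, had 11.5, 15.1, 19.3 and 16.1 CPM in SB/AKT/c-Met + TAA livers, 28.0, 13.9, 13.2, 17.5 and 15.0 CPM in SB/AKT/NRas + TAA livers and 8.73, 22.1, 28.4 and 15.1 CPM in SB + TAA livers. It had 5.27, 9.39, 3.12 and 3.58 CPM in SB/AKT/NRas + saline livers, 2.31, 10.2 and 8.99 CPM in SB/AKT/c-Met + saline livers and 11.1, 6.81, 3.22 and 5.13 CPM in SB + saline livers. It rose 2.66-fold in SB/AKT/NRas + TAA without overlap and 2.83-fold in SB + TAA with overlap (edgeR adjusted p = 0.0189 and 0.0246), and in SB/AKT/c-Met + TAA the log2 fold change was 1.25 ± 0.41 (SE; edgeR adjusted p = 0.086). Without SB + saline liver 3 or 4 the adjusted p was 0.0887 and 0.0693 in SB/AKT/NRas + TAA and 0.0973 and 0.0784 in SB + TAA, and it was 0.0683 without liver 1 of SB/AKT/NRas + TAA, 0.0979 without liver 3 of SB + TAA and, in SB + TAA, 0.0591 without SB + saline liver 2. Cyp2c39, a retinoic acid and arachidonic acid oxidase, had 1.15, 3.52, 1.23 and 0.351 CPM in SB/AKT/c-Met + TAA livers, 3.67, 1.58, 1.88, 3.09 and 1.25 CPM in SB/AKT/NRas + TAA livers and 0.672, 1.18, 0.306 and 1.89 CPM in SB + TAA livers. Of the saline livers it was detected in 5, at 0, 0.348, 0.284 and 0.65 CPM in SB/AKT/NRas + saline livers, 0, 0.342 and 0 CPM in SB/AKT/c-Met + saline livers and 0, 0, 0 and 0.428 CPM in SB + saline livers. SB/AKT/NRas + TAA held 36 counts against 1 in SB + saline, a 19.7-fold higher rate with a counting interval of 3.33 to 801 (edgeR adjusted p = 0.00797).

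The remaining Cyp2c genes differed less. Cyp2c44, an arachidonic acid epoxygenase, had 171, 115, 93.8 and 133 CPM in SB/AKT/c-Met + TAA livers, 83.4, 62.8, 121, 141 and 58.7 CPM in SB/AKT/NRas + TAA livers and 123, 169.9, 127 and 101 CPM in SB + TAA livers. The saline values of Cyp2c44 were 135, 88.0, 24.98 and 99.5 CPM in SB/AKT/NRas + saline livers, 152, 132 and 147 CPM in SB/AKT/c-Met + saline livers and 227, 179, 139 and 187 CPM in SB + saline livers. It fell 1.96-fold in SB/AKT/NRas + TAA and 2.12-fold in SB/AKT/NRas + saline livers (edgeR adjusted p = 0.0359 and 0.0322), and both calls were lost without SB + saline liver 1, 2 or 4, at adjusted p of 0.106, 0.0608 and 0.0706 and of 0.101, 0.0597 and 0.0701. They were also lost without liver 1, 2 or 5 of SB/AKT/NRas + TAA (0.0818, 0.101 and 0.108) and without liver 2, 3 or 4 of SB/AKT/NRas + saline (0.0712, 0.108 and 0.0532), and both with library size alone and with the plasma protein total, that in SB/AKT/NRas + saline also with only the groups compared. Cyp2c68 had 97.5, 88.6, 89.5 and 81.7 CPM in SB/AKT/c-Met + TAA livers, 82.7, 82.9, 58.0, 79.4 and 78.0 CPM in SB/AKT/NRas + TAA livers and 75.2, 117, 108 and 107 CPM in SB + TAA livers. It stood at 108, 53.2, 53.1 and 42.0 CPM in SB/AKT/NRas + saline livers, 54.6, 70.4 and 64.1 CPM in SB/AKT/c-Met + saline livers and 130.0, 112, 78.1 and 127 CPM in SB + saline livers. It fell 1.76-fold in SB/AKT/NRas + saline with overlap (edgeR adjusted p = 0.0194), lost without SB + saline liver 1 or 4 (0.0689 and 0.0648) or its own liver 2, 3 or 4 (0.0689, 0.0866 and 0.0786), and with library size alone, the plasma protein total or only the groups compared. Cyp2c70, an enzyme of mouse bile acid synthesis, passed no test: its means were 406 ± 120.3 CPM in SB/AKT/c-Met + TAA, 395 ± 76.0 in SB/AKT/NRas + TAA, 609.6 ± 113 in SB + TAA, 357 ± 278 in SB/AKT/NRas + saline livers and 327 ± 65.1 in SB/AKT/c-Met + saline, against 652 ± 100.1 in SB + saline (SD).

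Cyp2a22 was the only member called higher than SB + saline in all 5 groups by edgeR, and with limma-voom it kept the call in 2 of them, SB/AKT/c-Met + TAA and also SB/AKT/NRas + TAA. It had 13.4, 26.0, 13.2 and 8.42 CPM in SB/AKT/c-Met + TAA livers, 29.4, 20.5, 16.3, 24.1 and 13.8 CPM in SB/AKT/NRas + TAA livers and 3.69, 9.46, 10.1 and 3.78 CPM in SB + TAA livers. Livers given saline had 1.76, 4.87, 6.81 and 6.83 CPM in SB/AKT/NRas + saline livers, 4.16, 14.7 and 10.9 CPM in SB/AKT/c-Met + saline livers and 2.57, 1.14, 0.805 and 0.428 CPM in SB + saline livers. It rose 12-fold in SB/AKT/c-Met + TAA, 16.2-fold in SB/AKT/NRas + TAA, 5.26-fold in SB + TAA, 4.13-fold in SB/AKT/NRas + saline and 7.96-fold in SB/AKT/c-Met + saline livers (edgeR adjusted p = 0.000186, 1.14e-05, 0.0157, 0.0348 and 0.0101). Only SB/AKT/NRas + saline overlapped SB + saline. The first 2 calls held under all 34 alternatives. In SB + TAA the adjusted p was 0.055 and 0.0605 without SB + saline livers 3 and 4 and 0.0523 without liver 3 of SB + TAA. For SB/AKT/c-Met + saline it was 0.0513 and 0.0572 without the same SB + saline livers and 0.153 without its own liver 2. In SB/AKT/NRas + saline it was 0.075, 0.0969 and 0.114 without SB + saline livers 2, 3 and 4 and 0.0583, 0.131 and 0.0892 without its own livers 2, 3 and 4, and the call was lost with only the groups compared.

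Cyp2a22 was also higher in SB/AKT/NRas + TAA than in SB + TAA (3.09-fold, edgeR adjusted p = 0.0185) and than in SB/AKT/NRas + saline (3.93-fold, edgeR adjusted p = 0.019), in both cases without overlap. The first was lost without SB + TAA liver 1 or 4 or SB/AKT/NRas + TAA liver 1 (edgeR adjusted p = 0.0867, 0.0971 and 0.0674), and the second without SB/AKT/NRas + saline liver 2 or SB/AKT/NRas + TAA liver 1 (0.0673 and 0.074) and with the plasma protein total. The neighbouring gene Cyp2a12, a steroid hydroxylase of mouse liver, shares 39 bases of promoter with Cyp2a22 and did not pass in any comparison. Its means were 462 ± 39.1 CPM in SB/AKT/c-Met + TAA, 478 ± 49.4 in SB/AKT/NRas + TAA, 438 ± 82.4 in SB + TAA, 395 ± 40.8 in SB/AKT/NRas + saline livers and 461 ± 109 in SB/AKT/c-Met + saline, against 416 ± 26.9 in SB + saline (SD). Of the 50-base words of Cyp2a22, 20.2% also occur in another gene, most often Cyp2a12.

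Cyp1a1, the classical target of the aryl hydrocarbon receptor, was higher than in SB + saline in 2 of the 3 TAA groups. It had 7.68, 8.09, 4.60 and 0.351 CPM in SB/AKT/c-Met + TAA livers, 4.67, 2.52, 4.07, 4.12 and 1.75 CPM in SB/AKT/NRas + TAA livers and 9.74, 2.76, 9.47 and 7.03 CPM in SB + TAA livers. In the saline groups Cyp1a1 had 0.879, 0, 0 and 0 CPM in SB/AKT/NRas + saline livers, 0, 1.37 and 0 CPM in SB/AKT/c-Met + saline livers and 0, 1.70, 0.402 and 0.428 CPM in SB + saline livers. It rose 8.48-fold in SB/AKT/c-Met + TAA with overlap and 12-fold in SB + TAA without overlap (edgeR adjusted p = 0.0309 and 0.00733). In SB/AKT/NRas + TAA no liver overlapped SB + saline, and the log2 fold change of 2.48 ± 0.84 did not pass (SE; edgeR adjusted p = 0.0586). Set against the saline livers with the same plasmids, its log2 fold change was 3.24 ± 0.90 for AKT and c-Met and 3.98 ± 0.96 for AKT and NRas, neither of which passed (SE; edgeR adjusted p = 0.148 and 0.0892). The SB + TAA call held under all 34 alternatives, and that in SB/AKT/c-Met + TAA was lost without its liver 1, 2 or 3 (edgeR adjusted p = 0.0763, 0.105 and 0.0559) or SB + saline liver 1, 3 or 4 (0.105, 0.0934 and 0.0932), and with limma-voom. No other gene of the list of aryl hydrocarbon receptor targets was called in SB + TAA. Of the 4 tested there, Nqo1 was higher in SB/AKT/c-Met + TAA (log2 1.83 ± 0.34), SB/AKT/NRas + TAA (1.92 ± 0.33) and SB/AKT/NRas + saline (1.23 ± 0.34; SE), and Cyp1a2 was lower in SB/AKT/NRas + TAA (-1.29 ± 0.41) and SB/AKT/NRas + saline (-1.57 ± 0.44), at edgeR adjusted p of 0.00163, 0.000367, 0.0252, 0.0421 and 0.0252.

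Of the 5 Cyp2d genes, drug oxidases of the mouse liver, 4 were called lower in at least 1 group, and none was called in SB/AKT/c-Met + saline. The sum of the 5 genes was 1394 to 2214 CPM in SB/AKT/c-Met + TAA, 1419 to 2375 CPM in SB/AKT/NRas + TAA, 1223 to 2808 CPM in SB + TAA, 1258 to 2701 CPM in SB/AKT/NRas + saline and 2226 to 2498 CPM in SB/AKT/c-Met + saline, against 2957 to 3283 CPM in SB + saline. In these TMM-scaled sums every liver of the 5 groups was below every SB + saline liver. This separation depended on the TMM factors, which were lowest in the SB + saline livers. With library size alone some SB + TAA livers lay within the range of SB + saline. The family's median log2 fold change was between -1.01 and -0.40 against SB + saline, and in SB/AKT/c-Met + saline it became 0.08 when the plasma protein total was the scale. The calls below depended on scaling as well: with library size alone 0 of 5 Cyp2d genes were called in SB + TAA, 1 each in SB/AKT/c-Met + TAA, SB/AKT/NRas + TAA livers and SB/AKT/NRas + saline, and with the plasma protein total only 1 gene in SB/AKT/c-Met + TAA passed.

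Cyp2d26 had 362, 382, 394 and 332 CPM in SB/AKT/c-Met + TAA livers, 319.5, 292, 365, 349 and 251 CPM in SB/AKT/NRas + TAA livers and 520.3, 502, 401 and 332 CPM in SB + TAA livers. Saline livers had 441, 364, 543 and 515 CPM in SB/AKT/NRas + saline livers, 559, 468 and 481 CPM in SB/AKT/c-Met + saline livers and 668, 647, 581.8 and 672 CPM in SB + saline livers of Cyp2d26. It fell 1.75-fold in SB/AKT/c-Met + TAA, 2.04-fold in SB/AKT/NRas + TAA and 1.46-fold in SB + TAA livers (edgeR adjusted p = 0.0044, 9.67e-05 and 0.0441), in each case without overlap. The SB + TAA call was lost without any 1 of 9 livers, at adjusted p of 0.0866, 0.0789, 0.0546 and 0.0957 without SB + saline livers 1 to 4, 0.107 and 0.206 without SB + TAA livers 3 and 4, 0.0523 without SB/AKT/c-Met + TAA liver 1 and 0.0529 and 0.0533 without SB/AKT/NRas + TAA livers 1 and 2, and with no filter, with only the groups compared and without both livers that stand apart. Cyp2d22 had 108, 87.9, 81.8 and 71.2 CPM in SB/AKT/c-Met + TAA livers, 77.4, 62.8, 99.7, 97.6 and 56.2 CPM in SB/AKT/NRas + TAA livers and 64.5, 113, 72.1 and 54.1 CPM in SB + TAA livers. Its saline levels were 91.8, 59.1, 48.3 and 65.0 CPM in SB/AKT/NRas + saline livers, 119, 82.0 and 114 CPM in SB/AKT/c-Met + saline livers and 164, 144, 115 and 129 CPM in SB + saline livers. It fell 1.76-fold in SB/AKT/NRas + TAA, 1.82-fold in SB + TAA and 2.1-fold in SB/AKT/NRas + saline livers (edgeR adjusted p = 0.0134, 0.0212 and 0.00412). The call in SB/AKT/NRas + TAA was lost without SB + saline liver 1 (0.0516), and that in SB + TAA without SB + saline liver 1 or 2 (0.0663 and 0.0523) or SB + TAA liver 1, 3 or 4 (0.071, 0.0517 and 0.103) or both livers that stand apart.

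Cyp2d9, a male-predominant steroid hydroxylase of mouse liver, had 936, 555, 665 and 404 CPM in SB/AKT/c-Met + TAA livers, 422, 483, 806, 797 and 457 CPM in SB/AKT/NRas + TAA livers and 636, 1235, 884 and 304 CPM in SB + TAA livers. It had in saline livers 914, 559, 182 and 453 CPM in SB/AKT/NRas + saline livers, 887, 717 and 960.4 CPM in SB/AKT/c-Met + saline livers and 1338, 1161, 1079 and 1214 CPM in SB + saline livers. It fell 2.28-fold in SB/AKT/NRas + saline livers (edgeR adjusted p = 0.0387), a call lost without any 1 of the 4 SB + saline livers (0.0919, 0.069, 0.0577 and 0.0802) or its own liver 2, 3 or 4 (0.0782, 0.151 and 0.0979), and with only the groups compared. Cyp2d40 had 30.3, 24.97, 41.7 and 17.9 CPM in SB/AKT/c-Met + TAA livers, 24.01, 36.3, 46.1, 51.2 and 30.1 CPM in SB/AKT/NRas + TAA livers and 41.3, 37.5, 45.5 and 17.3 CPM in SB + TAA livers. It was present at 117, 46.6, 14.2 and 36.1 CPM in SB/AKT/NRas + saline livers, 56.0, 65.6 and 83.6 CPM in SB/AKT/c-Met + saline livers and 79.1, 75.5, 72.0 and 87.3 CPM in SB + saline livers. It fell 2.72-fold in SB/AKT/c-Met + TAA without overlap (edgeR adjusted p = 0.0283), lost without its liver 1, 2 or 4 (0.0552, 0.0885 and 0.108) or SB + saline liver 1, 2 or 4 (0.0572, 0.0534 and 0.072). Cyp2d10 passed no test, at 693 ± 102 CPM in SB/AKT/c-Met + TAA, 799 ± 219.5 in SB/AKT/NRas + TAA, 782 ± 212 in SB + TAA, 661 ± 321 in SB/AKT/NRas + saline livers and 821 ± 97.8 in SB/AKT/c-Met + saline, against 1101 ± 49.8 in SB + saline (SD). In TMM-scaled CPM, all livers of SB/AKT/c-Met + TAA, SB + TAA and SB/AKT/c-Met + saline lay below all SB + saline livers for Cyp2d10. The groups given AKT and NRas overlapped SB + saline.

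Cyp2j5, the main arachidonic acid epoxygenase of its family in mouse liver, was called lower in 4 groups, and the related Cyp2j6 and Cyp2u1 passed no test. Cyp2j5 had 157, 138, 164 and 178 CPM in SB/AKT/c-Met + TAA livers, 107, 96.2, 237, 215 and 128 CPM in SB/AKT/NRas + TAA livers and 185, 231, 200.2 and 135 CPM in SB + TAA livers. With saline there were 338, 237, 129 and 184 CPM in SB/AKT/NRas + saline livers, 291, 247 and 339 CPM in SB/AKT/c-Met + saline livers and 441, 360.0, 381 and 387 CPM in SB + saline livers. It fell 2.46-fold in SB/AKT/c-Met + TAA, 2.51-fold in SB/AKT/NRas + TAA, 2.09-fold in SB + TAA and 1.77-fold in SB/AKT/NRas + saline, each without overlap (edgeR adjusted p = 0.00347, 0.000804, 0.0138 and 0.0435). The first 2 calls held under all 34 alternatives and the third was lost without SB + TAA liver 4 (0.0679). The fourth was lost without any 1 of the SB + saline livers (0.11, 0.0653, 0.0729 and 0.0849), its own livers 2, 3 and 4 (0.0792, 0.191 and 0.118) or SB/AKT/c-Met + TAA livers 1 and 3 (0.0509 and 0.0502), and with library size alone, the plasma protein total or only the groups compared. Cyp2j6 ranged from 39.3 to 73.8 CPM over all 24 livers and Cyp2u1, a fatty acid hydroxylase, from 13.7 to 149 CPM. Cyp2f2, which bioactivates naphthalene in mouse tissues, ranged from 202 to 1634 CPM, and Cyp2g1 from 0 to 2.41 CPM, and neither was called.

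The Cyp3a genes, the broadest drug oxidases of the liver, had 1 of 6 tested members called. Cyp3a11 averaged 3435 ± 601 CPM in SB/AKT/c-Met + TAA, 3314 ± 819 in SB/AKT/NRas + TAA, 5160.0 ± 2298 in SB + TAA, 2654 ± 1452 in SB/AKT/NRas + saline livers and 3431 ± 1129 in SB/AKT/c-Met + saline, against 4369 ± 907 in SB + saline (SD), and passed no test. SB + TAA livers 2 and 3, at 7731 and 6463 CPM, were above every SB + saline liver, and livers 1 and 4, at 3087 and 3359.6 CPM, below every one. The median log2 fold change of the 6 Cyp3a genes tested was negative in all 5 groups with TMM and was above 0 with library size alone in SB/AKT/c-Met + TAA (0.19) and SB + TAA (0.07) and with the plasma protein total in SB/AKT/c-Met + TAA (0.35), SB/AKT/NRas + TAA (0.17) and also SB/AKT/c-Met + saline (0.12). Cyp3a13, Cyp3a16, Cyp3a25 and Cyp3a59 were likewise not called in any comparison, and Cyp3a16 had 0 to 3 counts per library.

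Cyp3a44, a female-predominant Cyp3a of mouse liver, was the exception. It had 4.22, 11.96, 7.66 and 1.40 CPM in SB/AKT/c-Met + TAA livers, 4.00, 4.73, 2.82, 1.03 and 5.77 CPM in SB/AKT/NRas + TAA livers and 0.336, 1.97, 1.22 and 1.08 CPM in SB + TAA livers. In saline livers Cyp3a44 had 0.879, 1.39, 0.568 and 0.325 CPM in SB/AKT/NRas + saline livers, 0, 0.683 and 0.749 CPM in SB/AKT/c-Met + saline livers and 1.28, 0, 0 and 0.428 CPM in SB + saline livers. It rose 13-fold in SB/AKT/c-Met + TAA without overlap and 7.68-fold in SB/AKT/NRas + TAA with overlap (edgeR adjusted p = 0.00449 and 0.0149). The first call held under all 34 alternatives, and the second was lost without SB + saline liver 2 or 3 (0.0514 and 0.0629). In SB + TAA its log2 fold change was 1.26 ± 0.93 (SE; edgeR adjusted p = 0.474), and the direct difference of SB/AKT/c-Met + TAA from SB + TAA was 2.44 ± 0.62 (SE; edgeR adjusted p = 0.0799).

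Of the Cyp4 fatty acid hydroxylases, the 3 Cyp4f genes, which act on leukotrienes and long-chain fatty acids, and Cyp4v3 were called lower in 2 to 4 groups, Cyp4a10 was called lower in 1 saline group and Cyp4a14 higher in 1 TAA group. Cyp4f15 had 42.2, 46.4, 46.0 and 40.7 CPM in SB/AKT/c-Met + TAA livers, 40.02, 36.0, 49.2, 47.4 and 33.1 CPM in SB/AKT/NRas + TAA livers and 29.9, 54.8, 32.7 and 26.2 CPM in SB + TAA livers. It had with saline 39.5, 33.4, 17.0 and 31.5 CPM in SB/AKT/NRas + saline livers, 46.7, 35.9 and 41.2 CPM in SB/AKT/c-Met + saline livers and 88.5, 80.1, 57.1 and 71.0 CPM in SB + saline livers. It fell 1.69-fold in SB/AKT/c-Met + TAA, 1.8-fold in SB/AKT/NRas + TAA, 2.08-fold in SB + TAA and 2.46-fold in SB/AKT/NRas + saline, each without overlap (edgeR adjusted p = 0.046, 0.0077, 0.00454 and 0.000843). The calls in SB + TAA livers and SB/AKT/NRas + saline held under all 34 alternatives. That in SB/AKT/c-Met + TAA was lost without any 1 of 12 livers: SB + saline 1, 2 and 4 (0.137, 0.105 and 0.0812), its own 4 (0.0928, 0.0868, 0.0821 and 0.12), SB/AKT/c-Met + saline 3 (0.0524), SB/AKT/NRas + saline 2 and 4 (0.0532 and 0.0509) and SB/AKT/NRas + TAA 1 and 2 (0.0554 and 0.0538). It was also lost with limma-voom.

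Cyp4f13 had 35.3, 33.8, 34.0 and 30.5 CPM in SB/AKT/c-Met + TAA livers, 24.01, 25.2, 42.6, 39.9 and 28.1 CPM in SB/AKT/NRas + TAA livers and 22.5, 46.5, 33.6 and 28.7 CPM in SB + TAA livers. The saline livers held 57.1, 39.6, 25.3 and 30.6 CPM in SB/AKT/NRas + saline livers, 52.7, 43.7 and 44.6 CPM in SB/AKT/c-Met + saline livers and 66.7, 63.6, 41.4 and 64.2 CPM in SB + saline livers. It fell 1.76-fold, 1.84-fold and 1.8-fold in SB/AKT/c-Met + TAA, SB/AKT/NRas + TAA livers and SB + TAA livers (edgeR adjusted p = 0.0449, 0.00992 and 0.0289). The call in SB/AKT/NRas + TAA held without each liver. That in SB + TAA was lost without SB + saline liver 1, 2 or 4 (0.0791, 0.0725 and 0.08) or its own liver 1, 3 or 4 (0.108, 0.0572 and 0.106), and that in SB/AKT/c-Met + TAA without any of its 4 livers (0.0719, 0.0992, 0.0921 and 0.12), SB + saline liver 1, 2 or 4 (0.117, 0.103 and 0.115), SB/AKT/c-Met + saline liver 3 (0.0521) or SB/AKT/NRas + saline liver 2 (0.0532). Both Cyp4f13 and Cyp4f15 lost their calls in the 2 oncogene + TAA groups with library size alone and with the plasma protein total as the scale, and Cyp4f13 also lost that in SB + TAA. With limma-voom Cyp4f13 lost the call in SB/AKT/c-Met + TAA. Cyp4f14 had 72.6, 50.3, 87.7 and 75.4 CPM in SB/AKT/c-Met + TAA livers, 35.4, 27.8, 88.7, 68.4 and 48.1 CPM in SB/AKT/NRas + TAA livers and 88.7, 89.5, 86.8 and 64.3 CPM in SB + TAA livers. Its saline values were 98.0, 51.5, 39.5 and 46.5 CPM in SB/AKT/NRas + saline livers, 99.9, 52.3 and 98.9 CPM in SB/AKT/c-Met + saline livers and 109, 112, 115 and 127 CPM in SB + saline livers. It fell 2.16-fold in SB/AKT/NRas + TAA, a call held under all 34 alternatives, and 1.98-fold in SB/AKT/NRas + saline livers (edgeR adjusted p = 0.00832 and 0.0307), the call in SB/AKT/NRas + saline being lost without any 1 of the SB + saline livers (0.0602, 0.0582, 0.0581 and 0.0834) or its own livers 2, 3 and 4 (0.0867, 0.138 and 0.0932), and with library size alone or the plasma protein total.

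Cyp4v3, a fatty acid hydroxylase, had 154, 132, 154 and 105 CPM in SB/AKT/c-Met + TAA livers, 117, 102, 167, 169 and 99.5 CPM in SB/AKT/NRas + TAA livers and 141, 217, 167 and 87.0 CPM in SB + TAA livers. It had in the saline groups 211, 116, 77.5 and 105 CPM in SB/AKT/NRas + saline livers, 169.8, 144 and 151 CPM in SB/AKT/c-Met + saline livers and 256, 254, 236 and 233 CPM in SB + saline livers. It fell 1.87-fold in SB/AKT/NRas + TAA and 1.92-fold in SB/AKT/NRas + saline without overlap (edgeR adjusted p = 0.014 and 0.0195), the second call being lost without its liver 2, 3 or 4 (0.0577, 0.103 and 0.0649) and with only the groups compared, and both with the plasma protein total. Cyp4a14 and Cyp4a10 are targets of PPAR alpha. Cyp4a14 had 129, 284, 149 and 25.3 CPM in SB/AKT/c-Met + TAA livers, 93.1, 60.6, 59.5, 129 and 82.7 CPM in SB/AKT/NRas + TAA livers and 63.1, 196, 66.0 and 28.1 CPM in SB + TAA livers. It was measured with saline at 33.0, 20.5, 13.1 and 31.9 CPM in SB/AKT/NRas + saline livers, 15.3, 51.2 and 12.7 CPM in SB/AKT/c-Met + saline livers and 53.0, 28.4, 46.3 and 29.1 CPM in SB + saline livers. It rose 3.72-fold in SB/AKT/c-Met + TAA with overlap (edgeR adjusted p = 0.0388), lost without any SB + saline liver (0.0634, 0.121, 0.0788 and 0.123) or its own liver 1, 2 or 3 (0.0518, 0.201 and 0.0763), and with limma-voom. Cyp4a10 had 177, 259.5, 244 and 35.4 CPM in SB/AKT/c-Met + TAA livers, 104, 85.5, 73.0, 143 and 137 CPM in SB/AKT/NRas + TAA livers and 142, 375, 175 and 60.0 CPM in SB + TAA livers. Saline livers stood at 66.8, 39.3, 18.5 and 47.2 CPM in SB/AKT/NRas + saline livers, 29.1, 106 and 57.7 CPM in SB/AKT/c-Met + saline livers and 163, 138, 98.6 and 98.8 CPM in SB + saline livers. It fell 2.92-fold in SB/AKT/NRas + saline without overlap (edgeR adjusted p = 0.0451), lost without any SB + saline liver (0.119, 0.0887, 0.0568 and 0.0639), its own liver 2, 3 or 4 (0.105, 0.176 and 0.0844), SB/AKT/c-Met + saline liver 3 (0.0521), SB/AKT/c-Met + TAA liver 1 (0.052) or SB/AKT/NRas + TAA liver 1 or 2 (0.0523 and 0.0517), and with limma-voom, library size alone or the plasma protein total. In liver 4 of SB/AKT/c-Met + TAA, Cyp4a10 and Cyp4a14 were the lowest of their group, at 35.4 and 25.3 CPM. Cyp4b1 ranged from 1.70 to 14.6 CPM and was not called.

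Por and Cyp26a1 passed no test. Por averaged 239 ± 55.1 CPM in SB/AKT/c-Met + TAA, 189 ± 36.7 in SB/AKT/NRas + TAA, 244.6 ± 17.0 in SB + TAA, 149 ± 68.8 in SB/AKT/NRas + saline livers and 151 ± 39.4 in SB/AKT/c-Met + saline, against 271 ± 179.9 in SB + saline (SD), where liver 1 alone stood at 536 CPM. Cyp26a1 ranged from 1.99 to 23.1 CPM in 23 livers and was at 84.2 CPM in liver 4 of SB/AKT/NRas + TAA.

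Comparisons that did not use SB + saline gave few calls. SB/AKT/c-Met + TAA had 0 members called against SB + TAA (background 0.402% of all genes; 7 members at an unadjusted p under 0.05; limma-voom 0, DESeq2 1) and 0 against SB/AKT/c-Met + saline (0.237%; 13 members; limma-voom 0, DESeq2 3). SB/AKT/NRas + TAA had Cyp2a22 and Cyp2c38 higher against SB + TAA (1.01%) and Cyp2a22 higher against SB/AKT/NRas + saline (0.124%). SB/AKT/NRas + saline had 0 called against SB/AKT/c-Met + saline (0.134%; 4 members at an unadjusted p under 0.05; limma-voom 0, DESeq2 0). The counts against SB + TAA became 2 for SB/AKT/c-Met + TAA without SB + TAA liver 2 or its own liver 4, and 1 for SB/AKT/NRas + TAA without SB + TAA liver 1 or 4 or its own liver 1. The count of SB/AKT/c-Met + TAA livers against SB/AKT/c-Met + saline became 4 without SB/AKT/NRas + saline liver 3, 3 without SB + TAA liver 2 or its own liver 4, 2 without SB + TAA liver 4, and 1 without SB + saline liver 1, SB/AKT/NRas + saline liver 1, SB/AKT/c-Met + saline liver 2 or its own liver 2. The count of SB/AKT/NRas + TAA livers against SB/AKT/NRas + saline became 0 without its liver 1. It became 2 without SB + saline liver 1, SB + TAA liver 1, 3 or 4, SB/AKT/c-Met + saline liver 1, SB/AKT/c-Met + TAA liver 4, or SB/AKT/NRas + saline liver 1 or 3.

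Whether the TAA difference depended on the plasmids was tested as an interaction. With AKT and NRas it was 3 members, all with a positive term, against a background of 0.181% called with a positive term, and with AKT and c-Met it was 0 (background 0.0103% in either direction; 8 members at an unadjusted p under 0.05; limma-voom 0, DESeq2 0). Cyp2c29 had a TAA difference of -0.29 ± 0.39 with AKT and NRas, against -2.73 ± 0.44 with SB alone (log2, SE; interaction 2.44 ± 0.58, edgeR adjusted p = 0.0416). Cyp2c38 had -0.10 ± 0.36 with AKT and NRas, against -2.74 ± 0.47 with SB alone (interaction 2.64 ± 0.60, edgeR adjusted p = 0.0315). Cyp4f15 had 0.45 ± 0.21, against -1.05 ± 0.22 (interaction 1.50 ± 0.30, edgeR adjusted p = 0.0163). For the first and the last of these genes the SB/AKT/NRas + saline livers were already called lower than SB + saline, whereas Cyp2c38 in that group had a log2 fold change of 0.18 ± 0.39 (SE). The AKT and c-Met interaction of the same genes was 1.20 ± 0.61, 1.10 ± 0.64 and 1.14 ± 0.32 (log2, SE; edgeR adjusted p = 0.611, 0.653 and 0.348).

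**Figure D5:**
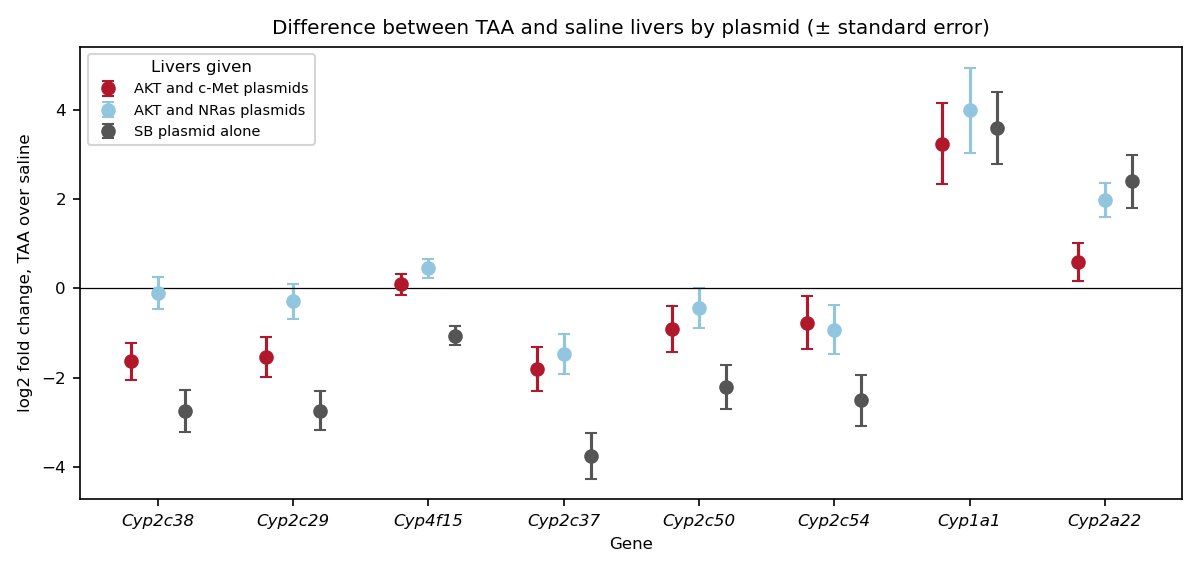
Log2 fold change of TAA over saline livers (y axis; points, edgeR estimate; bars, standard error) for 8 P450 genes with AKT and c-Met plasmids, AKT and NRas plasmids or the SB plasmid alone. For Cyp2c38, Cyp2c29 and Cyp4f15 the AKT and NRas points lie at -0.10, -0.29 and 0.45 and the SB points at -2.74, -2.73 and -1.05, while for Cyp1a1 all 3 points lie above 3.

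These 3 interaction calls rested on few livers. Their number became 0 without SB + saline liver 1, 8 without SB + TAA liver 2, 9 without SB/AKT/NRas + saline liver 1, and 1 without SB + saline liver 2 or 4, SB + TAA liver 1, 3 or 4, SB/AKT/NRas + saline liver 2 or 3, or SB/AKT/NRas + TAA liver 3 or 4. Cyp4f15 lost its interaction call without SB + saline liver 1 (edgeR adjusted p = 0.0545) and with the plasma protein total as the scale (0.0655), 2 of its 34 alternatives. Cyp2c38 kept it in 23 and Cyp2c29 in 15 of 34, with adjusted p of at most 0.0869 and 0.1.

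Genes around these enzymes moved alongside in part. Of 15 tested nuclear receptors and other regulators of P450 genes, 1 was lower in SB/AKT/c-Met + TAA, 4 in SB/AKT/NRas + TAA, 2 in SB + TAA, 3 in SB/AKT/NRas + saline livers and 0 in SB/AKT/c-Met + saline, and none was higher in any of these groups. Nr1i3 (CAR), which induces Cyp2b and Cyp2c genes, averaged 34.0 ± 11.9 CPM in SB/AKT/c-Met + TAA, 31.5 ± 4.70 in SB/AKT/NRas + TAA, 26.6 ± 15.5 in SB + TAA, 27.7 ± 14.5 in SB/AKT/NRas + saline livers and 34.6 ± 6.32 in SB/AKT/c-Met + saline, against 81.7 ± 18.3 in SB + saline (SD). Its log2 fold change was -1.27 ± 0.35, -1.38 ± 0.32, -1.64 ± 0.35 and -1.58 ± 0.35 in the first 4 of these groups (SE; edgeR adjusted p = 0.0337, 0.00631, 0.00573 and 0.00582). The Cyp2b gene Cyp2b9 went the other way. Its log2 fold change was 5.11 ± 0.87 in SB/AKT/c-Met + TAA, 5.26 ± 0.84 in SB/AKT/NRas + TAA and 4.51 ± 0.94 in SB/AKT/c-Met + saline (SE, edgeR adjusted p = 0.000635, 0.000174 and 0.015). Cyp2b9 was not called in SB + TAA or SB/AKT/NRas + saline. The part of Nr1i3 in any of these values was not tested. Hnf4a was lower in SB + TAA (-0.73 ± 0.22; edgeR adjusted p = 0.0488), Cebpa, a hepatocyte transcription factor, in SB/AKT/NRas + TAA (-1.05 ± 0.26; 0.00964) and SB/AKT/NRas + saline (-0.87 ± 0.28; 0.0484), and Ppara in SB/AKT/NRas + TAA (-0.90 ± 0.22; 0.00782).

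Of 8 genes of haem synthesis, 0 were called in SB/AKT/c-Met + TAA, 1 was lower in SB/AKT/NRas + TAA, 1 in SB + TAA livers and 3 in SB/AKT/NRas + saline, with Cpox in each of these 3 groups (log2 -0.75 ± 0.24, -0.83 ± 0.25 and -0.88 ± 0.25, SE; edgeR adjusted p = 0.0439, 0.0485 and 0.0287). Ephx2, the soluble epoxide hydrolase that acts on the products of Cyp2c and Cyp2j epoxygenases, fell in the same 3 groups (log2 -0.99 ± 0.28, -1.11 ± 0.30 and -1.02 ± 0.30, SE; edgeR adjusted p = 0.0243, 0.0275 and 0.0333). Of 15 PPAR alpha targets, 1 was higher in SB/AKT/c-Met + TAA, 2 higher and 1 lower in SB/AKT/NRas + TAA, 2 lower in SB + TAA, 3 higher and 1 lower in SB/AKT/NRas + saline and 2 higher in SB/AKT/c-Met + saline. Fgf21 was the gene that was higher in each group with oncogenes (log2 2.87 ± 0.62, 3.92 ± 0.58, 3.37 ± 0.60 and 3.77 ± 0.62 in SB/AKT/c-Met + TAA, SB/AKT/NRas + TAA, SB/AKT/NRas + saline livers and SB/AKT/c-Met + saline, SE; edgeR adjusted p = 0.00678, 6.82e-05, 0.00112 and 0.00154).

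Of 35 other P450 genes tested, 13 were called by the F test; 6 were higher and 3 lower in SB/AKT/c-Met + TAA, 7 higher and 8 lower in SB/AKT/NRas + TAA, 4 higher and 6 lower in SB + TAA, 4 higher and 4 lower in SB/AKT/NRas + saline, and 2 higher and 0 lower in SB/AKT/c-Met + saline. Cyp2a4, a female-predominant steroid hydroxylase close in sequence to Cyp2a5, averaged 419 ± 145 CPM in SB/AKT/c-Met + TAA, 425 ± 55.5 in SB/AKT/NRas + TAA, 24.6 ± 17.7 in SB + TAA, 79.0 ± 49.3 in SB/AKT/NRas + saline livers and 97.3 ± 95.7 in SB/AKT/c-Met + saline, against 3.54 ± 3.07 in SB + saline (SD; edgeR adjusted p = 1.69e-06, 6.3e-07, 0.0165, 0.000312 and 0.000515). The groups in which it was called higher are thus those of Cyp2a22. Cyp2e1 averaged 697 ± 240.4 CPM in SB/AKT/c-Met + TAA, 542 ± 83.9 in SB/AKT/NRas + TAA, 448 ± 234 in SB + TAA, 852 ± 538 in SB/AKT/NRas + saline livers and 1195 ± 276 in SB/AKT/c-Met + saline, against 2043 ± 393 in SB + saline (SD), and fell in the first 4 (edgeR adjusted p = 0.014, 0.00077, 0.000884 and 0.0308). The male-predominant Cyp4a12a fell in the 3 TAA groups (log2 -1.84 ± 0.48, -1.38 ± 0.44 and -2.54 ± 0.50, SE; edgeR adjusted p = 0.0261, 0.0464 and 0.00278).

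Some markers of hepatocyte zones and of other cells also differed from SB + saline, and others did not. Of 11 perivenous hepatocyte markers, 5 were lower in SB/AKT/c-Met + TAA, 6 in SB/AKT/NRas + TAA, 7 in SB + TAA, 3 in SB/AKT/NRas + saline livers and 0 in SB/AKT/c-Met + saline, and their summed level was 999 to 1813 CPM, 1062 to 1382 CPM, 692 to 1563 CPM, 692 to 3254 CPM and 2404 to 3027 CPM in these groups, against 3178 to 5285 CPM in SB + saline. Many P450 enzymes, Cyp2e1 among them, are themselves made around the central vein, and the perivenous calls share genes with the lists above. These markers are thus not independent of the P450 values and give no separate measure of the zones. Of 11 periportal markers, 0 were lower in SB/AKT/c-Met + TAA, 1 in SB/AKT/NRas + TAA, 0 in SB + TAA, 6 in SB/AKT/NRas + saline livers and 0 in SB/AKT/c-Met + saline. The periportal sums were 4067 to 4710, 3257 to 4442, 4104 to 4601, 1492 to 3293 and 3160 to 3544 CPM in these groups. SB + saline had 4325 to 5404 CPM. Of 14 plasma protein genes, 1 was lower in SB/AKT/c-Met + TAA, 2 in SB/AKT/NRas + TAA, 0 in SB + TAA, 3 in SB/AKT/NRas + saline livers and 0 in SB/AKT/c-Met + saline. Of 12 macrophage markers, 6, 7, 4, 6 and 0 were higher in the same order of groups, summing to 300.2 to 519 CPM, 275 to 580.1 CPM, 336 to 381 CPM, 347 to 557 CPM and 188 to 362 CPM, against 147 to 329.5 CPM in SB + saline. Of 10 stellate cell markers, 0, 3, 4, 5 and 0 were higher, and of 7 bile duct markers, 0, 1, 1, 3 and 0. Bile duct markers summed to 224 to 4759 CPM in SB/AKT/NRas + TAA and 150.3 to 8799 CPM in SB/AKT/NRas + saline, against 56.0 to 97.4 CPM in SB + saline, where Cldn4 was at 0. Sinusoidal endothelium markers summed to 157 to 184, 160 to 204, 165 to 200, 112 to 228 and 193 to 204 CPM in the 5 groups, in the order above. They summed to 159 to 206 CPM in SB + saline. The part of these markers, of the shares of records assigned or of low mapping quality and of the TMM factors in the P450 values was not tested.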

How the data were processed

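RNA from 24 mouse livers in 6 groups was sequenced, with index and UMI added at poly-A priming, so counts depend on the 3' structure of transcripts and levels of different genes were not compared. Per the file headers and the study's methods, the authors used Sabre for demultiplexing and STAR for alignment to GRCm38 plus human NRAS and MET, removed UMI duplicates with Picard and Samtools in RNAsik, and counted reads per gene with featureCounts 1.6.4 (forward strand, mapping quality at least 10), and the deposited values are raw counts.

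Here counts were filtered at 0.5 CPM in at least 2 libraries, scaled by TMM and tested with edgeR 4.0.16 (R 4.3.3) in 1 quasi-likelihood model of 6 group means, which pools the spread over all livers, with 1 F test, 10 pairwise comparisons and 2 interactions, each with p-values adjusted by Benjamini-Hochberg over all genes tested. A gene was called at an adjusted p under 0.05. CPM use TMM-scaled library sizes, and statements on overlap between the livers of groups refer to these values. Standard errors come from the fold change and its F statistic. Each liver is from 1 mouse; whether the sequenced livers were processed on different days is not given in the sources used here, and no 2 libraries held identical counts. The genes, lists and tests were chosen with earlier results of these data known. Members called in any comparison are given with the value in every liver, other members by range or mean, and up to 4 called genes of each related list by value. Alternatives were limma-voom (limma 3.58.1), DESeq2 1.42.0, RLE factors, library size alone, the plasma protein total, no filter, edgeR's own filter, a log2 fold threshold of 1, the compared groups only, the replicate number as a block, and each liver left out. Replicate numbers did not pair the livers: deviations of same-numbered livers correlated at a mean r of -0.0072 over 55 pairs, against 0.0021 over 184 pairs of different numbers. Counting intervals are exact at 95%. Promoters and gene positions are from RefSeq GRCm38.p6 and the deposited table. Figures were drawn with matplotlib 3.10.9.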

Additional observations from a re-analysis of the deposited data

Results flagged for a closer look

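Dixon's gap test at the 95% level was run on the 26 members called in any comparison, in groups of 4 or 5 livers. Members not called were not screened. In 10 of 129 such sets of values, a single liver lay far from the others of its group. Chance alone does so in about 1 in 20 sets of continuous, normally spread values. The flags of Cyp1a1, Cyp2c39 and Cyp2c40 follow from counts of 0 in the other livers, so that rate does not apply to these genes. Liver 2 of SB + TAA was high in 3 of the 10 flagged sets, with 566 CPM of Cyp2c29, 28.4 CPM of Cyp2c37 and 1.18 CPM of Cyp2c40. In SB + saline, Cyp2c54 was high in liver 1 at 172 CPM, Cyp4f13 was low in liver 3 at 41.4 CPM, and Cyp2c39 was detected in liver 4, at 0.428 CPM, and in none of the other 3. In SB/AKT/NRas + TAA liver 3, Cyp2c68 was low at 58.0 CPM and Cyp2c69 high at 0.627 CPM. Cyp4f14 was low in SB + TAA liver 4, the liver with muscle transcripts, at 64.3 CPM, and Cyp1a1 was detected in SB/AKT/NRas + saline liver 1, at 0.879 CPM, and in none of the other 3.

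The difference between TAA and saline livers itself differed between the AKT and NRas background and the SB plasmid alone for 3 genes by the edgeR interaction test. The log2 interaction was 1.50 for Cyp4f15 (edgeR adjusted p = 0.0163), 2.44 for Cyp2c29 (0.0416) and 2.64 for Cyp2c38 (0.0315).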

How the results depend on the processing

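The 67 calls of single members were recomputed 2275 times under the alternatives; 2002 kept the call, 273 lost it with the same direction and 0 changed direction. Of the counts of members called, that of SB + TAA over SB + saline (16) stayed within 1.5 times under every setting, at 11 to 18 with single livers left out. The other counts moved as follows, and the cause was not tested. For SB/AKT/c-Met + TAA over SB + saline the 13 calls became 24 with no filter and 26 with only the groups compared, and 7 to 17 with single livers left out. For SB/AKT/NRas + TAA over SB + saline the 17 calls became 28 with no filter and 27 with only the groups compared, and 14 to 23 with single livers left out. For SB/AKT/NRas + saline over SB + saline the 14 calls became 8 with library size alone, 7 with the plasma protein total, 5 with only the groups compared, 24 without both livers that stand apart, and 2 to 24 with single livers left out. For SB/AKT/c-Met + saline over SB + saline the 1 call became 0 with limma-voom, 3 with DESeq2, 8 with no filter, 10 with only the groups compared, 4 without both livers, and 0 to 3 with single livers left out.

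SB/AKT/c-Met + TAA over SB + TAA (0 calls) gave 1 with DESeq2, 2 with the plasma protein total, 3 with no filter and 0 to 2 with single livers left out. SB/AKT/c-Met + TAA over its saline group (0 calls) gave 3 with DESeq2, 10 with no filter, 8 with only the groups compared, 6 without both livers and 0 to 4 with single livers left out. SB/AKT/NRas + TAA over SB + TAA (2 calls) gave 8 with no filter and 1 to 3 with single livers left out. SB/AKT/NRas + TAA over its saline group (1 call) gave 4 with DESeq2, 0 with the plasma protein total, 8 with no filter, 2 with only the groups compared, 3 without both livers and 0 to 2 with single livers left out. SB/AKT/NRas + saline over SB/AKT/c-Met + saline (0 calls) gave 6 without both livers. The AKT and c-Met interaction (0 calls) gave 4 with no filter. The AKT and NRas interaction (3 calls) gave 1 with the plasma protein total, 9 with no filter, 8 without both livers and 0 to 9 with single livers left out. The F test (21 calls) gave 32 with no filter, 32 without both livers and 16 to 31 with single livers left out. Leaving out both livers was chosen after the data were seen.

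With the replicate block, the number of members called in SB/AKT/c-Met + TAA over its saline group became 1. In the other comparisons with SB + saline it was 10 for SB/AKT/c-Met + TAA, 13 for SB/AKT/NRas + TAA, 15 for SB + TAA, 13 for SB/AKT/NRas + saline and 1 for SB/AKT/c-Met + saline, and it was 4 for the AKT and NRas interaction and 18 for the F test. Of the 67 single calls 58 held with the block, and the 9 that did not were Cyp2d26 in SB + TAA, Cyp2j5 in SB/AKT/NRas + saline, Cyp4a14, Cyp4f13 and Cyp4f15 in SB/AKT/c-Met + TAA, and Cyp2c44, Cyp2c69, Cyp2d22 and Cyp4v3 in SB/AKT/NRas + TAA. The replicate numbers did not pair the livers. Depth limits the genes of few counts, among them Cyp2c39, Cyp2c40, Cyp2c69, Cyp2g1 and Cyp3a16.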
